A study of Mus musculus with 20 samples.

Results

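The genes of the Snai, Zeb, Twist and Prrx transcription factors, which are tied to epithelial–mesenchymal transition (EMT), were followed through 10 conditions of NMuMG cells, an epithelial line from normal mouse mammary gland. They were found by symbol: Snai1, Snai2, Snai3, Zeb1, Zeb2, Twist1, Twist2, Prrx1 and Prrx2 are 9 of the 54986 genes in the deposited expression table, and each had 1 row. Each condition had 2 RNA-Seq libraries. In 5 conditions the cells were untreated wild type (NMuMG), wild type treated with TGFβ for 4 d (TGFβ), silenced for hnRNP E1, the product of Pcbp1, by an shRNA (E1KD), or E1KD cells recovered from the primary tumor (M1P) or the lung metastases (L1P) that they had formed in NOD/SCID mice. In the other 5 the cells were NMuMG with an empty overexpression vector (Empty vector), NMuMG clones 12 and 16 overexpressing the long noncoding RNA Platr18, E1KD cells that carried a scrambled shRNA (E1KD SCR) or one directed at Platr18 (E1KD Platr18 KD). M1P, L1P, E1KD SCR and E1KD Platr18 KD thus all carried the hnRNP E1 shRNA. Each overexpressing line was a clone of its own, and M1P and L1P had been selected with puromycin in culture. The sources do not say whether the 2 libraries of a condition came from separate cultures. The p-values measure the spread between libraries of the same condition, pooled over all 10 conditions, and this spread may be technical.

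Among EMT transcription factors, those of the Snai and Zeb families act largely as repressors. Snai proteins (zinc fingers) and Zeb proteins (zinc fingers with a homeodomain) bind E-boxes of the form CACCTG in promoters of junction and polarity genes, Cdh1 being the best known. They recruit histone deacetylases, CtBP and other corepressors, while Twist proteins (basic helix-loop-helix factors) pair with E proteins and Prrx proteins are paired-type homeodomain factors of mesenchyme. In mammary cells TGFβ signals through Smad proteins to raise these factors, and miR-200 family RNAs hold Zeb1 and Zeb2 down in epithelium.

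Values are counts per 1e6 reads (CPM). The libraries were of 2 kinds that the labels do not name. NMuMG, TGFβ, E1KD, M1P and L1P had 333 to 492 CPM of the mitochondrial rRNA gene mt-Rnr2 and at most 8.996 CPM of the small nuclear RNA gene Rn7sk, and are called the mRNA-like kind here. The other 5 conditions had 113874 to 165149 CPM of mt-Rnr2 and 6461 to 10097 CPM of Rn7sk and are called the rRNA-rich kind. Conditions were tested within a kind. From the step of 1 read in the low values, the libraries had been scaled to 50.8 to 60.03 M reads (M, 1e6) in the mRNA-like kind and 63.0 to 147 M in the rRNA-rich kind, so that 3 reads on a gene, taken as the detection floor, were worth 0.04998 to 0.0591 CPM and 0.0204 to 0.0477 CPM. Pcbp1 had 287 and 312 CPM in NMuMG against 14.2 to 30.5 CPM in E1KD, M1P and L1P, and 32.3 CPM in both Empty vector libraries against 2.92 to 3.46 CPM in E1KD SCR and E1KD Platr18 KD. E1KD replicate 1 stood apart: its ratio to replicate 2 had a median of 0.29 on the log2 scale across the tested genes, against at most 0.07 in size in any other pair. Of 11 mammary epithelial markers 6 to 8 were above the floor, with Krt8 and Krt18 the most abundant, but Epcam and Csn2 were at or below it in every condition. Leukocyte markers summed to at most 7.20 CPM, endothelial markers to at most 0.541 CPM and lung epithelial markers to at most 0.118 CPM. Fibroblast markers summed to 42.9 and 51.6 CPM after TGFβ, from Col1a1 and Pdgfrb, and to at most 1.68 CPM elsewhere, and the part of other cells in the results was not tested. In such bulk libraries fewer cells that express a gene and less of its RNA per cell cannot be told apart.

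The E-box that Snai and Zeb proteins bind was searched in the RefSeq promoters of GRCm38.p6, from 250 bases before to 50 after each start of transcription. The motif was CACCTG on either strand, that is, CACCTG or CAGGTG, and 22.6% of the 27025 genes with a promoter sequence held it. Among the members, Zeb1 left aside, 6 had such a sequence and Snai1 alone held the motif. Among 22 epithelial genes that the textbooks give as targets, only 13 (59.1%) had a sequence, so the share with a motif over this list is void as a check. Below are windows from Snai1 and from the 4 targets that were called changed in E1KD or after TGFβ and had a sequence. They show where the member's own motif and those of its candidate targets lie. They run 5′ to 3′ on the gene's strand with the motif in capitals, and a match describes letters, not binding.
Snai1 at -126 from its start (chr2:167538057-167538086, + strand): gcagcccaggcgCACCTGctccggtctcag
Crb3 at -118 (chr17:57062071-57062100, + strand): cccctgtgcttaCACCTGctcatttccgcc
Crb3 at -63 (chr17:57062126-57062155, + strand): gggttcccgttaCAGGTGctctggcggcgc
Crb3 at -7 (chr17:57062182-57062211, + strand): ctcagccaggctCAGGTGcacaagccggaa
Crb3 at 26 (chr17:57062214-57062243, + strand): gcgctctttgccCAGGTGggtgactaaact
Cldn4 at -14 (chr5:134946931-134946960, - strand): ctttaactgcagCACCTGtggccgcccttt
Cldn4 at 12 (chr5:134946906-134946935, - strand): cctttcttgttgCAGGTGcaggcaggaaag
Dsp at 4 (chr13:38151285-38151314, + strand): gaagaagccgacCAGGTGtggcctgggcgc
Lsr at -69, the nearest of its 4 motifs to the start (chr7:30973521-30973550, - strand): gaggcaggagcgCACCTGagtcagcccact

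Members differed widely in level. Per kilobase of exon (CPM per kb, over all annotated exons), Snai3 and Zeb1 led in NMuMG, at 2.62 and 2.19 CPM per kb, while Zeb2, Snai2 and Snai1 lay between 0.170 and 0.263. After TGFβ Zeb1 and Snai1 led at 4.89 and 4.80 CPM per kb, followed by Zeb2 at 2.60. In E1KD the order was Snai3 at 3.43, Zeb1 at 3.27, Snai1 at 2.54 and Twist2 at 1.28 CPM per kb, and in L1P Snai2 reached 2.92 CPM per kb beside Zeb1 at 3.09. In the rRNA-rich kind Snai1 and Twist2 stayed at or below 0.184 CPM per kb. Twist1, Prrx1 and Prrx2 were near or at 0 in most libraries.

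**Figure D1:**
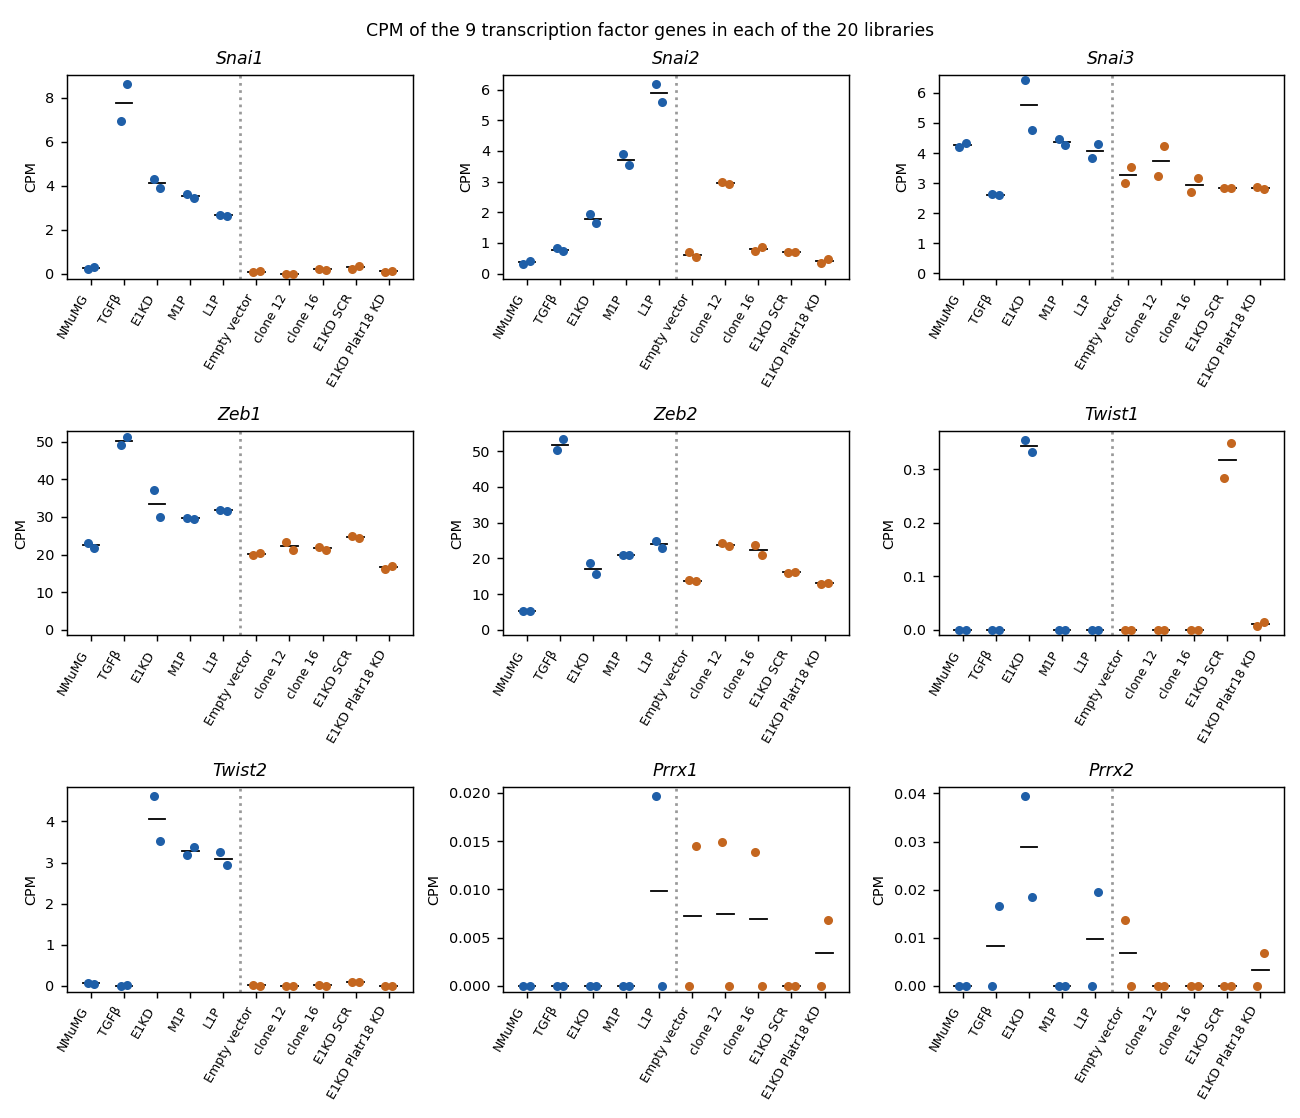
CPM (linear axis, a separate scale for each gene) of the 9 genes in each of the 20 libraries. Points are libraries, bars are means of 2, blue marks the mRNA-like kind and orange the rRNA-rich kind, and the dotted line parts the kinds. Snai1 and Zeb2 are highest after TGFβ, Snai2 is highest in L1P, Twist2 is high in E1KD, M1P and L1P, and Twist1 is seen in E1KD and E1KD SCR.

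Differences were tested with limma on log2(CPM + 1), and a gene was called changed if its unadjusted p was under 0.001 and its log2 fold change 1 or more in size. The test took in genes that reached 1 CPM in 2 or more libraries. Of the members 6 passed: Snai1, Snai2, Snai3, Zeb1, Zeb2 and Twist2. Snai1, Snai2 and Twist2 passed only through the conditions in which they were high, so the counts that follow describe the members and are no support for a difference. In E1KD against NMuMG, 4 of the 6 were called, all higher (Snai1, Snai2, Zeb2 and Twist2), where 9.44% of all tested genes were called and 6.44% were called higher. In TGFβ against NMuMG, 3 were called, all higher (Snai1, Zeb1 and Zeb2), against 13.5% of all tested genes called and 5.85% called higher. In the direct comparison of E1KD with TGFβ, Twist2 was called higher and Zeb2 lower in E1KD, where 23.3% of all tested genes were called. In M1P against E1KD and in L1P against M1P, 4 and 2 members had an unadjusted p under 0.05 in limma. At least 49.1% and 18.5% of all tested genes also did. None of the members was called in M1P against E1KD (background 3.59%) or in L1P against M1P (background 1.21%). The shares in comparisons with E1KD rest in part on E1KD replicate 1, which stood apart from its pair. With an adjusted p under 0.05 and no fold limit in place of this rule, 6 members passed in E1KD against NMuMG, where 56.6% of all tested genes did, 5 in TGFβ against NMuMG (55.4%), 6 in E1KD against TGFβ (71.5%), 3 in M1P against E1KD (49.1%) and 2 in L1P against M1P (18.5%). The median log2 fold change over all tested genes was 0.17 in E1KD against NMuMG, -0.08 in TGFβ against NMuMG, 0.26 in E1KD against TGFβ and -0.17 in M1P against E1KD. Without E1KD replicate 1 it was 6.56e-16 in E1KD against NMuMG, 0.095 in E1KD against TGFβ and -0.009 in M1P against E1KD. Without E1KD replicate 2 it was 0.33, 0.42 and -0.32 in the same order. The shifts with E1KD thus rest largely on its replicate 1. The members' values are to be read against all these shifts.

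**Figure D2:**
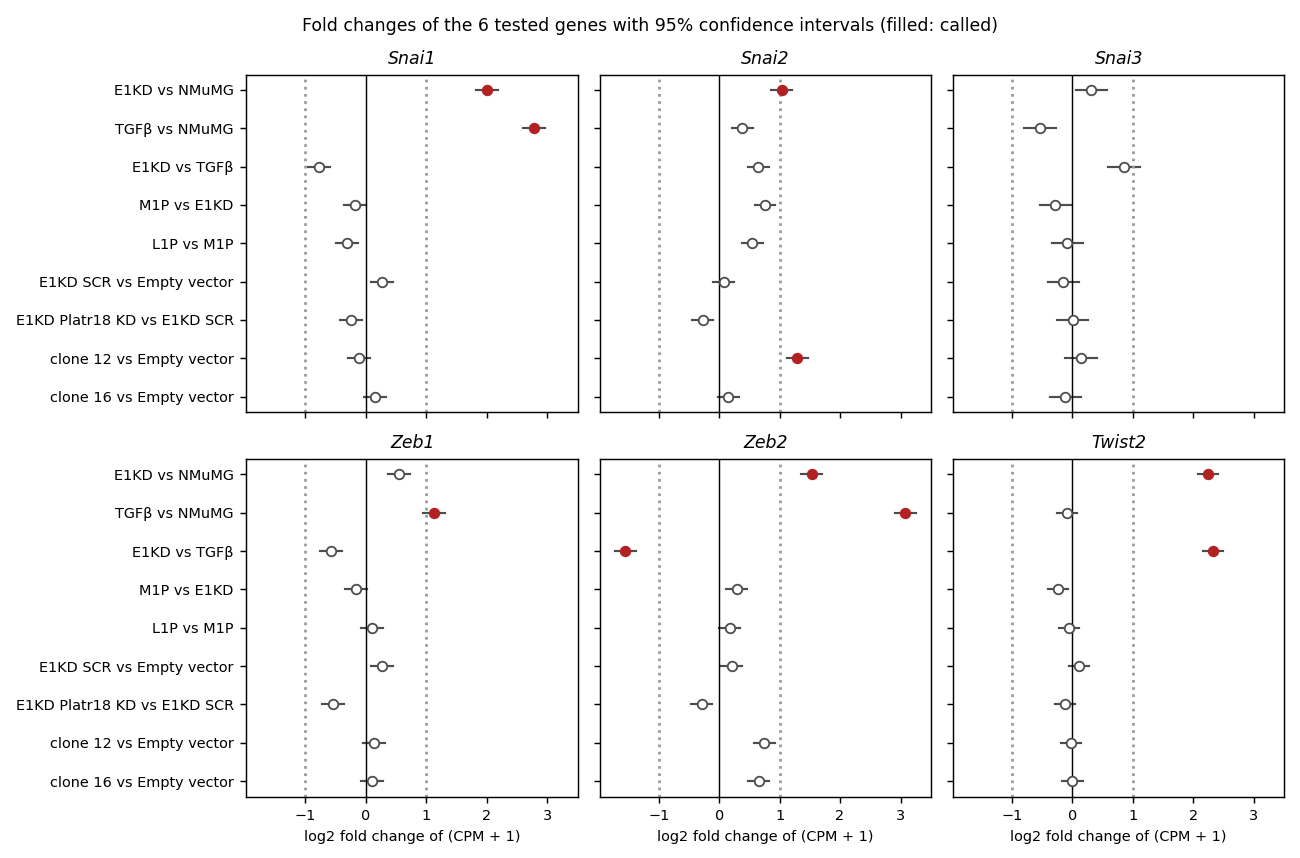
Log2 fold changes of CPM + 1 (points) with 95% confidence intervals (lines) of the 6 tested genes in 9 comparisons, from limma. Filled points were called and dotted lines mark a change of 1 in either direction. Snai1 and Zeb2 were called in both E1KD and TGFβ against NMuMG, Zeb1 after TGFβ, Twist2 in E1KD, and Snai2 in E1KD and in clone 12.

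Snai1 (ENSMUSG00000042821.7, chr2:167538195-167542814, + strand), the founding EMT repressor and an early target of Smad signaling, rose in both models. It had 0.230 and 0.321 CPM in NMuMG, 6.93 and 8.63 CPM after TGFβ and 4.31 and 3.92 CPM in E1KD. The ranges of the 3 conditions did not overlap. The mean was 28.3-fold that of NMuMG after TGFβ (19.8 to 42.3, exact 95% counting interval on 30 reads in NMuMG) and 14.9-fold in E1KD (10.4 to 22.5). On the log2(CPM + 1) scale the changes were 2.78 (standard error 0.0845, adjusted p = 1.82e-12, limma) and 2.00 (adjusted p = 7.91e-11, limma). The difference between E1KD and TGFβ, -0.77, was under the fold limit, but it was -1.11 and called after median-of-ratios rescaling of the libraries. M1P had 3.63 and 3.42 CPM and L1P 2.69 and 2.62 CPM. These lay below E1KD in every library and above NMuMG, with log2 fold changes of -0.18 in M1P against E1KD (adjusted p = 0.0987, limma) and -0.31 in L1P against M1P (adjusted p = 0.0199, limma), neither of them called. Its exact counting intervals, like others here, cover counting error only.

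Snai2 (Slug; ENSMUSG00000022676.7, chr16:14705852-14709385, + strand), a repressor that also marks basal and stem-like mammary cells, differed in order from Snai1. It had 0.319 and 0.415 CPM in NMuMG, 0.835 and 0.733 CPM after TGFβ and 1.93 and 1.66 CPM in E1KD. In M1P it had 3.89 and 3.54 CPM, and in L1P 6.20 and 5.61 CPM. No pair of these 5 conditions overlapped, and the order of the means was NMuMG, TGFβ, E1KD, M1P and L1P. Against NMuMG the mean was 4.90-fold in E1KD, 10.1-fold in M1P and 16.1-fold in L1P. The log2 fold change was 1.03 in E1KD (standard error 0.0795, adjusted p = 6.88e-08, limma), 1.79 in M1P and 2.34 in L1P, all called, where 9.4% and 11% of all tested genes were called in M1P and L1P against NMuMG. The call in E1KD was close to the limit: the value was 0.90 after median-of-ratios rescaling, 0.98 without NMuMG replicate 1 and 0.96 without E1KD replicate 1, none of them called. The steps from E1KD to M1P (0.76, adjusted p = 4.64e-06, limma) and from M1P to L1P (0.55, adjusted p = 2.24e-04, limma) were each under the fold limit, as was TGFβ against NMuMG (0.38, adjusted p = 8.23e-04, limma). Platr18, listed in the table as Lncenc1, had the same order of means, from 1.24 and 1.45 CPM in NMuMG to 76.9 and 73.3 CPM in L1P, and its part in the Snai2 levels was not tested in these libraries.

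Snai3 (Smuc; ENSMUSG00000006587.6, chr8:122454208-122460733, - strand) is the least studied Snai gene. It had 4.19 and 4.32 CPM in NMuMG, 2.64 and 2.60 CPM after TGFβ and 6.42 and 4.75 CPM in E1KD. M1P and L1P had 3.83 to 4.47 CPM and overlapped NMuMG. No comparison with NMuMG was called, the log2 fold changes being -0.54 after TGFβ (adjusted p = 0.00154, limma) and 0.31 in E1KD (adjusted p = 0.0395, limma). E1KD against TGFβ gave 0.85, and 1.04 with a call when E1KD replicate 2 was left out. The protein-coding gene AC114005.5 overlaps Snai3 on the opposite strand with up to 59.6 CPM, and whether reads were counted by strand is not stated, so the level of Snai3 is uncertain.

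Zeb1 (ENSMUSG00000024238.14, chromosome 18), the zinc finger and homeodomain repressor that forms a mutually inhibitory loop with miR-200, was well expressed in every condition. NMuMG had 23.2 and 21.8 CPM, TGFβ 49.2 and 51.2 CPM, and E1KD 37.2 and 29.9 CPM. M1P had 29.8 and 29.5 CPM and L1P 32.0 and 31.5 CPM. All 4 other conditions were above NMuMG without overlap, and only the rise after TGFβ, 2.23-fold in mean CPM and 1.12 on the log2 scale (standard error 0.0847, adjusted p = 3.77e-08, limma), was called. The changes against NMuMG were 0.55 in E1KD (adjusted p = 7.92e-05, limma), 0.39 in M1P and 0.48 in L1P. M1P and L1P lay near or within the range of E1KD, and M1P against E1KD gave -0.16 (adjusted p = 0.123, limma), which turned to 0.05 after median-of-ratios rescaling.

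Zeb2 (ENSMUSG00000026872.17, chr2:44983632-45117395, - strand), the close relative of Zeb1 that was also named Smad-interacting protein, rose after TGFβ and in E1KD. It had 5.15 and 5.34 CPM in NMuMG, 50.3 and 53.3 CPM after TGFβ and 18.6 and 15.6 CPM in E1KD. The 3 ranges were far apart. The mean was 9.88-fold that of NMuMG after TGFβ and 3.26-fold in E1KD, with log2 fold changes of 3.08 (standard error 0.0818, adjusted p = 3.86e-13, limma) and 1.53 (adjusted p = 1.18e-09, limma). With only the NMuMG and E1KD libraries in the fit, the E1KD change missed the limit (unadjusted p = 0.00143, adjusted p = 0.0228, limma). Directly compared, Zeb2 was lower in E1KD than after TGFβ (-1.55 on the log2 scale, adjusted p = 5.18e-10, limma). M1P with 21.07 and 21.001 CPM and L1P with 24.8 and 23.03 CPM were above both E1KD libraries, and neither step was called. The antisense gene Zeb2os reached at most 0.145 CPM in any library.

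Twist1 (ENSMUSG00000035799.6, chr12:33957671-33959829, + strand), a basic helix-loop-helix factor tied to metastasis of mammary tumors, was too low to be tested but was confined in these libraries to cells silenced for hnRNP E1. It had 0.354 and 0.333 CPM in E1KD, which is 18 reads in each library. It had 0.284 and 0.349 CPM in E1KD SCR, or 21 and 22 reads, and 1 and 2 reads in E1KD Platr18 KD, in libraries scaled to 147 M reads. The other 14 libraries, M1P and L1P included, had 0 reads. Against the floor of 3 reads per library, E1KD was at least 6.26-fold above NMuMG and at least 6.87-fold above TGFβ, M1P and L1P were at least 6.51-fold and 5.87-fold below E1KD, and E1KD SCR was at least 7.495-fold above Empty vector. E1KD Platr18 KD was 31.1-fold below E1KD SCR in mean CPM, with an exact 95% counting interval of 9.86 to 155 on 3 against 43 reads.

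Twist2 (Dermo1; ENSMUSG00000007805.4, chr1:91801461-91848028, + strand), the paralog of Twist1, was high in E1KD, M1P and L1P, and near the floor after TGFβ. It was also low in E1KD SCR, at 0.0947 and 0.0953 CPM (7 and 6 reads), and in E1KD Platr18 KD, with 1 read in each library. It had 0.0812 and 0.0566 CPM in NMuMG, 0 and 0.0167 CPM after TGFβ, and 4.61 and 3.52 CPM in E1KD. M1P had 3.18 and 3.37 CPM and L1P 3.26 and 2.94 CPM. The 6 libraries of E1KD, M1P and L1P lay above 2.9 CPM and the 4 libraries of NMuMG and TGFβ below 0.1 CPM. E1KD was 59.0-fold NMuMG in mean CPM (27.9 to 129, exact 95% counting interval on 8 reads in NMuMG), and the log2(CPM + 1) change was 2.24 (standard error 0.0772, adjusted p = 7.82e-12, limma). TGFβ differed from NMuMG by -0.08 (95% confidence interval -0.25 to 0.08, adjusted p = 0.396, limma), and E1KD from TGFβ by 2.32 (adjusted p = 3.35e-12, limma). M1P against E1KD gave -0.24 and L1P against M1P -0.06, neither called. The antisense gene RP23-5H15.1 inside this locus reached at most 0.906 CPM.

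Prrx1 (ENSMUSG00000026586.16, chr1:163245119-163313710, - strand) and Prrx2 (ENSMUSG00000039476.13, chr2:30834972-30881251, + strand), homeobox genes of limb and craniofacial mesenchyme, were at or below the floor in all 20 libraries. Prrx1 had 1 read in 5 libraries and 0 in the other 15. Prrx2 had at most 2 reads, in E1KD replicate 1, and was above 0 in 6 libraries. Differences were not detectable at this depth.

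In the rRNA-rich kind, E1KD SCR was compared with Empty vector as a second pair with and without the hnRNP E1 shRNA, although these lines also differ in vector backbone. No member was called, where 5.98% of all tested genes were. By an adjusted p under 0.05 in limma 2 members passed (Snai1 and Zeb1), against 42.6% of all tested genes. By an unadjusted p under 0.05 it was 3 members, against at least 42.6% of all. Snai1 had 0.230 and 0.365 CPM in E1KD SCR against 0.0548 and 0.101 CPM in Empty vector, a ratio of 3.81 (1.90 to 8.16, exact 95% counting interval) and a log2(CPM + 1) change of 0.27 (adjusted p = 0.0204, limma). Zeb1 had 24.9 and 24.3 CPM against 19.9 and 20.5 CPM (0.27, adjusted p = 0.018, limma), and Zeb2 15.98 and 16.1 CPM against 13.8 and 13.7 CPM (0.21, adjusted p = 0.0552, limma). For these 3 genes both E1KD SCR libraries were above both Empty vector libraries, as they were for Twist2, with 7 and 6 reads against 2 and 0. Snai3 went the other way without overlap, at 2.83 CPM in both E1KD SCR libraries against a mean of 3.27 CPM (-0.15, adjusted p = 0.343, limma), and Snai2 overlapped (0.08). Such a lack of overlap was found for 76.6% of all tested genes.

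The change with hnRNP E1 silencing was called different between the kinds of library for 3 of the 6 members. Of all tested genes 3.51% were called for such a difference and 2.57% were called in that direction. At an adjusted p under 0.05 alone it was 4 members, against 21.3%. Snai1 and Twist2 passed the filter only through the mRNA-like kind and lay below 1 CPM in every rRNA-rich library. On the log2(CPM + 1) scale their changes in the rRNA-rich kind could only be small, so their calls were in part set in advance. The difference in log2 fold change, mRNA-like minus rRNA-rich, was 1.74 for Snai1 (2.00 and 0.27; standard error 0.119, adjusted p = 1.33e-07, limma), 1.32 for Zeb2 (1.53 and 0.21; adjusted p = 1.48e-06, limma) and 2.13 for Twist2 (2.24 and 0.11; adjusted p = 8.29e-09, limma). For Snai2 it was 0.96 and for Zeb1 0.28 (adjusted p = 0.117, limma), neither called, but for Snai2 it was 1.86 and called with a pseudocount of 0.1 (adjusted p = 6.16e-05, limma). As a ratio of mean CPM, Twist2 in E1KD SCR was 6.94-fold Empty vector (1.53 to 61.6, exact 95% counting interval on 13 against 2 reads), an interval that overlaps that of E1KD against NMuMG (27.9 to 129). Over all tested genes the median difference was 0.17. It was -0.01 without E1KD replicate 1 and 0.32 without E1KD replicate 2. The control levels also differed: Zeb2 had 13.8 and 13.7 CPM in Empty vector and 5.15 and 5.34 CPM in NMuMG, and Pcbp1 had 32.3 CPM and 287 to 312 CPM. Platr18 had 1.24 and 1.45 CPM in NMuMG and 17.9 and 14.6 CPM in E1KD. It had 3.68 and 3.06 CPM in Empty vector and 2.92 and 3.10 CPM in E1KD SCR. Kind of library, vector and Platr18 level change together between these pairs and cannot be told apart.

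**Figure D3:**
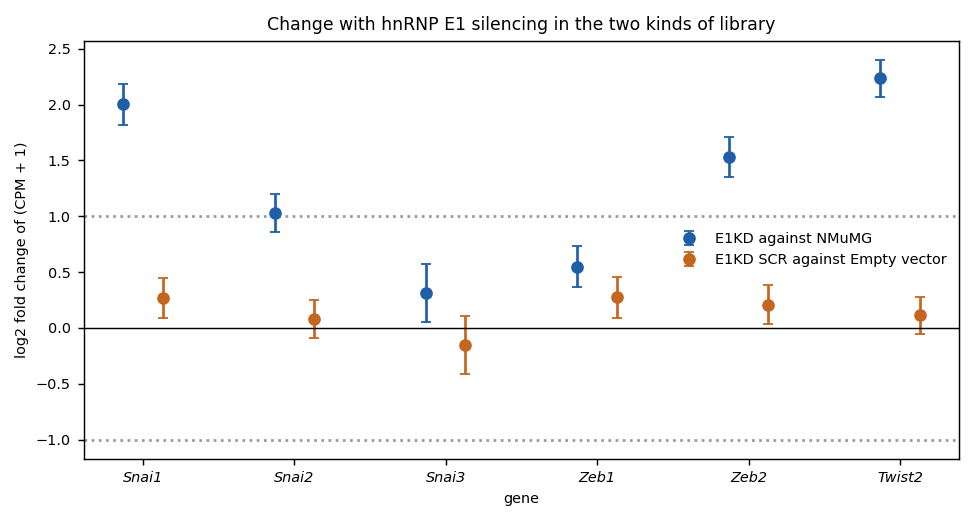
Log2 fold change of CPM + 1 with hnRNP E1 silencing for the 6 tested genes, with 95% confidence intervals, in the mRNA-like kind (blue, E1KD against NMuMG) and in the rRNA-rich kind (orange, E1KD SCR against Empty vector). The dotted lines mark a change of 1. Snai1, Zeb2 and Twist2 are at 2.00, 1.53 and 2.24 in blue and at 0.27, 0.21 and 0.11 in orange.

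Of the lines overexpressing Platr18, clone 12 had raised Snai2. This gene had 0.699 and 0.536 CPM in Empty vector, 3.001 and 2.91 CPM in clone 12, and 0.734 and 0.852 CPM in clone 16. Clone 12 was 4.79-fold Empty vector in mean CPM and was called (1.29 on the log2 scale, adjusted p = 1.74e-08, limma, background 3.65%), whereas clone 16 was not (0.15, adjusted p = 0.206, limma, background 1.78%). Clone 16 was lower than clone 12 by a log2 fold change of -1.14 (adjusted p = 5.37e-08, limma), the only one of the 6 members called between the clones, where 4.38% of all tested genes were. By adjusted p under 0.05 alone 2 members (Snai1 and Snai2) differed, against 42.5% of all. Platr18 itself was at 3092 and 3096 CPM in clone 12, 813 and 820 CPM in clone 16 and 3.68 and 3.06 CPM in Empty vector, and its part in the difference between the clones was not tested. Zeb2 had 24.2 and 23.3 CPM in clone 12 and 23.6 and 20.9 CPM in clone 16, all above Empty vector, with log2 fold changes of 0.75 and 0.65 (adjusted p = 4.74e-05 in clone 16, limma) that were under the fold limit, and clone 16 differed from clone 12 by -0.09 (95% confidence interval -0.27 to 0.08). The clones together against Empty vector gave no called member (background 1.46%, and 2 members at an adjusted p under 0.05 against 28.8%, the same 2 as at an unadjusted p under 0.05), with 0.72 for Snai2 and 0.70 for Zeb2. Snai1 had 0 reads in both clone 12 libraries and 0.222 and 0.182 CPM in clone 16, which put clone 16 at least 4.45-fold above clone 12. Twist1 had 0 reads in all 6 of these libraries.

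Silencing Platr18 in E1KD cells gave no called member, where 1.48% of all tested genes were called. By an adjusted p under 0.05 in limma 3 members passed, against 19.5% of all tested genes. By an unadjusted p under 0.05 it was 4 members, against at least 19.5% of all. Most values lay lower in E1KD Platr18 KD than in E1KD SCR. Zeb1 had 16.2 and 16.9 CPM against 24.9 and 24.3 CPM (-0.55 on the log2 scale, standard error 0.0847, adjusted p = 3.70e-04, limma). Zeb2 had 12.9 and 12.99 CPM against 15.98 and 16.1 CPM (-0.29, adjusted p = 0.0234, limma), and Snai2 0.346 and 0.470 CPM against 0.690 and 0.715 CPM (-0.28, adjusted p = 0.0255, limma). Snai1 had 0.0747 and 0.116 CPM against 0.230 and 0.365 CPM, 3.13-fold lower in mean CPM (1.85 to 5.17, exact 95% counting interval). The libraries of the 2 conditions did not overlap for 5 of the 6 tested members, all but Snai3, and for 71.2% of all tested genes. Platr18 was at 0.136 and 0.170 CPM in E1KD Platr18 KD and 2.92 and 3.10 CPM in E1KD SCR.

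Genes that act with, upstream or downstream of these factors were counted from lists. The list of epithelial targets had 12 tested genes, and over all tested genes 2.99% fell in E1KD and 7.66% after TGFβ. Of the 12, 2 fell in E1KD: Mal2, a transcytosis protein, by -3.96 on the log2 scale and Crb3, an apical polarity protein, by -1.65. After TGFβ 5 fell, among them the keratin Krt19 (-4.67), Mal2 (-1.66), the desmosomal plaque gene Dsp (-1.42) and, with Crb3 (-1.01), the tricellular junction gene Lsr (-1.03). The tight junction gene Cldn4 went the other way, from 0.119 to 19.3 CPM (4.18). Its promoter holds 2 of the motifs printed above, and binding to any of them was not tested. Medians of the list were -0.19 in E1KD and -0.88 after TGFβ, beside 0.17 and -0.08 over all tested genes. Cdh1, the classical target, was not called in either model, at 234 CPM in NMuMG, 177 CPM in E1KD and 133 CPM after TGFβ, and was called lower in M1P than in E1KD (70.8 against 177 CPM, -1.29). Mal2 was also called lower than in Empty vector in E1KD SCR (-4.88) and in clone 12 (-4.90; 0.023 against 29.6 CPM). It was not in clone 16 (33.3 CPM).

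Of 15 mesenchymal genes tested, 8 rose and none fell in E1KD, where 6.44% of all tested genes rose, with a list median of 1.023. After TGFβ 10 rose, where 5.85% of all tested genes did, and 1 fell, with a list median of 2.29. Genes at 0 CPM in NMuMG, such as Mmp2 and Tnc, could enter the test only through conditions in which they were high. These counts therefore describe the list and are no support for a difference. Fibronectin, Fn1, had log2 fold changes of 3.76 and 5.86, and the integrin gene Itga5 of 3.16 and 5.05. The calcium-binding gene S100a4 rose in E1KD (2.73) and was the gene that fell after TGFβ (-2.23). The gelatinase gene Mmp2 was 2.78 CPM in E1KD and 0 in NMuMG, and it was called lower in M1P than in E1KD (0.308 CPM, -1.52). The matrix genes Tnc and Col1a1 rose after TGFβ, from 0 and 0.195 CPM to 35.1 and 34.3 CPM, Col1a1 being also one of the fibroblast markers given above. Fn1 and S100a4 moved in the other comparisons too: both were called lower in M1P than in E1KD (-1.81 and -2.67) and higher in L1P than in M1P (1.59 and 1.23). Fn1 was higher than in Empty vector in clone 12 (1.11) and clone 16 (1.05). S100a4 was called higher in clone 12 (2.18; 481 against 106 CPM in mean) but not in clone 16 (0.61; 161 CPM), and clone 16 was lower than clone 12 (-1.58). Against Empty vector both genes were called higher in E1KD SCR (1.75 and 2.36), and they were lower in E1KD Platr18 KD than in E1KD SCR (-1.59 and -1.06).

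Of 19 tested corepressors and partners, 2 were called in E1KD and 3 after TGFβ, where 9.44% and 13.5% of all tested genes were, so the list lay near the background. The genes called were Id genes, whose helix-loop-helix proteins bind the E protein partners of Twist but not DNA. Id3 and Id1 rose in E1KD (2.81 and 1.41), and Id2, Id1 and Id3 fell after TGFβ (-3.79, -2.06 and -1.05). The other 16 genes, which include the corepressors Ctbp1, Hdac1, Kdm1a and Sin3a, were called in neither. Among 17 tested genes for the stability of Snai, Zeb and Twist proteins none was called in E1KD, and after TGFβ the lysyl oxidase Loxl2 (2.28) and the deubiquitinase Usp27x (2.11), both known to stabilize Snai1, rose. Of 11 tested genes that feed TGFβ signals in, the ligand genes Tgfb1 and Tgfb2 rose in E1KD (1.95 and 1.90) and after TGFβ (1.95 and 1.85), and the chromatin gene Hmga2 was called after TGFβ (1.67). Of 12 tested genes for other EMT transcription factors, Foxc1 (1.46) and Id1 rose in E1KD. After TGFβ the SRF coactivator gene Mkl1 (1.13) and Foxq1 (1.09) rose, and Id1 and Sox9 (-1.31) fell. Of 7 genes for miR-200 and miR-205, 6 were in the table and none reached the 1 CPM filter, so none was tested.

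**Figure D4:**
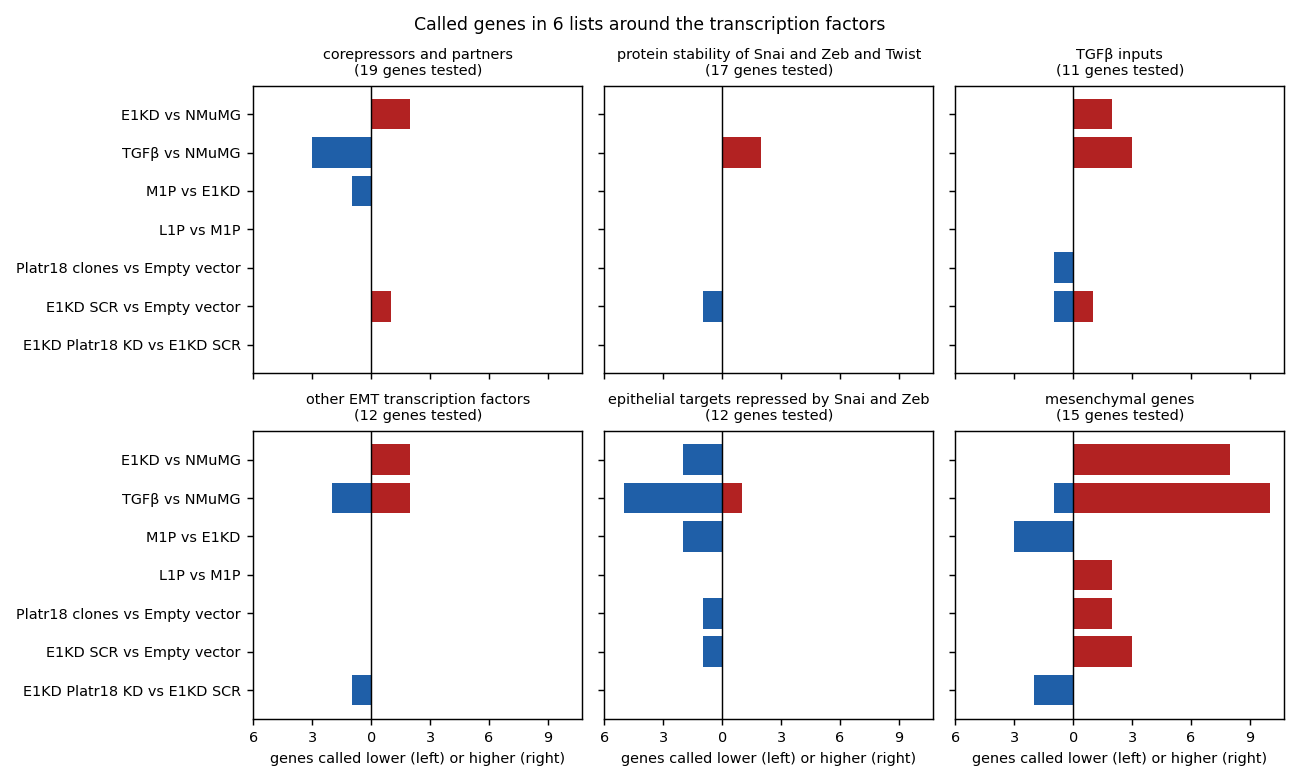
Number of genes called higher (red, right) or lower (blue, left) in 7 comparisons for 6 lists of genes around the transcription factors. Mesenchymal genes give the longest bars, 8 higher in E1KD and 10 higher with 1 lower after TGFβ, and epithelial targets give 2 and 5 lower.

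The genes most like each member over the 20 libraries, centred within each kind, were ranked by Pearson r among the 13292 or 13293 other genes that reached 5 CPM in 2 or more libraries. These values rest on conditions that share control libraries and scaling and are a description. Snai1 was most like Itga5 (r = 0.949), Lgr6 and Kif3c, and Zeb2 most like Kctd11 (r = 0.972), Ccbe1 and Rab10. Zeb1 was most like Col4a2 and Col4a1 (r = 0.947 for each) and Hyal2, the first pair being neighbouring collagen genes. Snai2 was most like ENSMUSG00000065999.13 (r = 0.970), Cnih1 and Rrm2b, Snai3 most like RP23-457N11.7 (r = 0.963), Tubb5 and Rps2, and Twist2 most like Gm26880 (r = 0.996), ENSMUSG00000111083.1 and Gm26809.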

How the data were processed

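RNA-Seq reads were aligned by the authors with Bowtie2 2.2.5 (mouse GRCm38.p6, version from the submitters' processing notes) and assigned to M18 genes by Partek's expectation-maximization procedure. The deposited values are CPM with 0.0001 added, which was subtracted here. Low values were whole multiples of 1 read (within 0.02, up to 60 reads) for 89.0% to 90.1% and 96.9% to 97.4% of values in the 2 kinds of library, so counts were not recovered. log2(CPM + 1) was modelled in R 4.3.3 with limma version 3.58.1 (lmFit, eBayes with trend; 20 libraries, 10 means, 10 residual degrees of freedom) over 17106 genes, with Benjamini-Hochberg adjustment over all of them, after tests on simulated data. Read numbers of members are CPM divided by the value of 1 read, rounded. Python 3.11.15 was used for tables. Members and lists were chosen with earlier results of these data known. From lists, genes called in E1KD or TGFβ against NMuMG and among the 4 largest changes were named; Pcbp1 and Platr18 were named as targets, Cdh1, Crb3 and Lsr after TGFβ and genes in other comparisons after their values were seen. Replicate numbers do not state a pairing and were used as a block in an alternative only. Gene coordinates are those of the table. Alternatives were pseudocount 0.1, no filter, rescaling, only compared groups, a replicate block, adjusted p alone and leaving out each library.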

Additional observations from a re-analysis of the deposited data

Results flagged for a closer look

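For 3 members the change with hnRNP E1 silencing differed between the pair of conditions in the mRNA-like kind of library and the pair in the rRNA-rich kind, by the test of the difference itself in limma. The difference in log2 fold change was 1.74 for Snai1, 1.32 for Zeb2 and 2.13 for Twist2, in each case larger in E1KD against NMuMG than in E1KD SCR against Empty vector. As ratios of mean CPM, the exact 95% counting intervals of the 2 pairs overlapped for Twist2 (27.9 to 129 and 1.53 to 61.6). They did not for Snai1 (10.4 to 22.5 and 1.90 to 8.16). Snai1 and Twist2 passed the filter only through the mRNA-like kind. Their low CPM in the rRNA-rich kind kept the log2(CPM + 1) changes there small. For Snai2 the clones overexpressing Platr18 differed from each other, with a log2 fold change of -1.14 in clone 16 against clone 12.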

How the results depend on the processing

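Counts of called members depended mostly on the fold limit and the pseudocount. At an adjusted p under 0.05 (limma) with no fold limit, 5 members were called in TGFβ against NMuMG, 6 in E1KD against TGFβ, 3 in M1P against E1KD, 2 in L1P against M1P, 2 in the Platr18 clones against Empty vector, 2 between the clones, 3 in E1KD Platr18 KD against E1KD SCR and 2 in E1KD SCR against Empty vector. Of all tested genes that rule called 55.4%, 71.5%, 49.1%, 18.5%, 28.8%, 42.5%, 19.5% and 42.6% in the same order. In E1KD against NMuMG it called 56.6% of them. With pseudocount 0.1 the counts were 4 in E1KD against TGFβ, 1 in M1P against E1KD (Snai2), 1 in the clones against Empty vector (Snai2), 2 between the clones (Snai1, Snai2), 1 in E1KD Platr18 KD against E1KD SCR (Snai1) and 1 in E1KD SCR against Empty vector (Snai1), and 4 for the difference between kinds, where Snai2 was added. Of all 17106 tested genes 5179, 1130, 616, 1362, 633, 1708 and 983 were called in the same order. With the main pseudocount of 1 these were 3993, 614, 249, 750, 253, 1023 and 601. With pseudocount 0.1 and no filter, added after seeing the data, the members called were 5, 2, 1, 2, 2, 2 and 4 in the same order, and each count that grew did so by Twist1, whose value there is set by the pseudocount, the lower group having 0 to 2 reads per library. Of the 39266 genes then tested 6073, 1539, 753, 1722, 822, 2194 and 1271 were called. The count in E1KD against NMuMG ran from 3 to 6. Leaving out each library in turn gave 3 to 4 members in E1KD against NMuMG, 2 to 3 in E1KD against TGFβ and 3 to 4 for the difference between kinds of library, and changed no other count.

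The replicate number as a block left every count as it was, with 4 members in E1KD against NMuMG. The deviations of libraries that share a number correlated between -0.395 and 0.287, and with crossed numbers, like the alternatives for the difference between kinds added after seeing the data, E1KD against TGFβ kept 2 called members and the clones against Empty vector 0. Direction changed only for values near 0. Zeb1 in M1P against E1KD was 0.048 after median-of-ratios rescaling, and Snai1 in the clones against Empty vector was -0.025 with pseudocount 0.1, with or without the filter. With a library left out, values in the clones against Empty vector ranged from -0.0069 to 0.055 for Snai1, -0.078 to 0.10 for Snai3 and -0.029 to 0.0099 for Twist2. Between the clones they ranged from -0.10 to 0.025 for Zeb1 and 0 to 0.039 for Twist2, and for Snai3 in E1KD Platr18 KD against E1KD SCR from -0.0032 to 0.011. After median-of-ratios rescaling the share of higher genes among all those called moved from 68.3% to 51.7% in E1KD against NMuMG, 43.3% to 56.1% after TGFβ, 73.6% to 47.8% in E1KD against TGFβ, 32.2% to 51.1% in M1P against E1KD and 73.0% to 59.3% for the difference between kinds. At these depths changes in Prrx1 and Prrx2 were not detectable.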
